A study of Ettlia oleoabundans with 10 samples.

Results

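Cultures of the unicellular green alga Ettlia oleoabundans, a species that stores oil, were compared to describe what differed in the transcript pool when the nitrate supply was 0.75 mM, the highest of the 3 low concentrations in the nitrate series. The library of 0.75 mM nitrate was set against 3 libraries with ample nitrate, those of 1.5 mM, 3 mM and the control (9 mM nitrate with 42 mM NaCl), so 4 of the 10 libraries of the series define the comparison. These 3 are called replete here, a word the labels do not use. All were strain UTEX # 1185 in phototrophic culture, sampled after 6 days at 25 °C, with continuous light at 22 to 28 µmol photons m-2 s-1. The labels give an NaCl concentration for the control alone among these 4, and they do not say whether a library came from 1 culture or from pooled cultures. Each condition had 1 library, so the spread among the 3 replete libraries, which also differ in nitrate, is the only estimate of error. RNA was taken from whole cultures, in which lower levels in every cell and loss of a transcript from some of the cells cannot be told apart.

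Green algae take up nitrate through transporters in the plasma membrane, reduce it to nitrite and then to ammonium, and fix the ammonium into glutamine and glutamate. When nitrogen runs short, green algae in general lower the cost of chlorophyll and protein synthesis, recycle internal nitrogen, and store carbon as starch and triacylglycerol. The deposited table gives 1 expression value per library for 10122 scaffold families, under numeric identifiers that the files do not pair with gene names. No family is therefore assigned to any of these pathways, and identifiers are printed for only 2 families in each direction.

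Whether the values were scaled for feature length or library depth cannot be told from the values alone, and they give no read depth. The summed value was 473975 for the 0.75 mM library, 473578 for 1.5 mM, 511359 for 3 mM and 477174 for the control. Between 783 families (0.75 mM) and 1021 families (1.5 mM) were listed at 0. Families were compared if their value averaged 1 or more across the 4 libraries, which held for 8687, and the comparison was made on the log2(value + 1) scale, which understates differences of families with low values. A family was counted as changed when its value at 0.75 mM lay at least 1 log2 unit above the highest, or below the lowest, of the 3 replete values.

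The 3 replete libraries lay close together. In the median family the 3 replete values spanned 0.35 log2 units, and in 480 of the 8687 families they spanned 1 unit or more. Between pairs of replete libraries, 51 families differed by at least 1 unit for 1.5 against 3 mM, 181 for 3 mM against the control and 420 for 1.5 mM against the control. The 0.75 mM library differed by that much in 1167 families from 1.5 mM, in 1121 from 3 mM and in 1063 from the control. It thus stood apart from its nearest neighbour in concentration by more families than the replete libraries did from one another. In the median family, 0.75 mM was 0.09 log2 units above the mean of the replete values. This common shift was not subtracted from the differences below.

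At 0.75 mM nitrate, 419 families (4.82% of those tested) were above the replete range by at least 1 log2 unit and 227 families (2.61%) were below it. The median distance outside the range was 1.45 log2 units for the higher and 1.42 for the lower families, and 316 of the 419 and 169 of the 227 lay less than 2 units outside. Distances of 3 units or more were found in 33 higher and 21 lower families, and of 5 units or more in 6 higher and 5 lower ones. Without a minimum distance, 3588 families were above and 2406 below all 3 replete values. The median replete span of the changed families, 0.37 log2 units for the higher and 0.43 for the lower ones, was near that of all families tested (0.35).

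**Figure D1:**
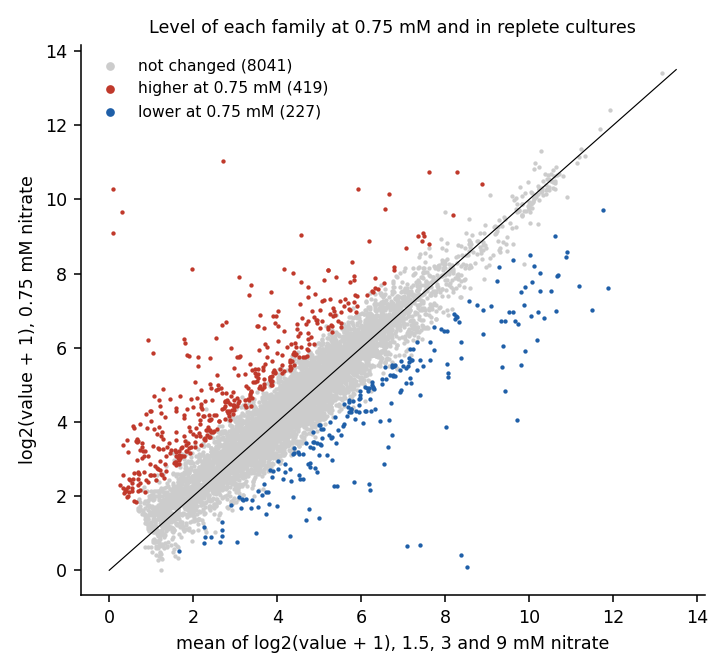
Each point is 1 of 8687 families, with the mean of log2(value + 1) over the libraries of 1.5, 3 and 9 mM nitrate on the x axis and log2(value + 1) at 0.75 mM on the y axis. Red points mark the 419 higher families, blue points the 227 lower ones, grey points the rest, and the line marks equal levels; the blue points reach further into the high levels than the red ones.

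The 2 higher families farthest outside the replete range were close to absent with ample nitrate. Family 47_c0 had an expression value of 1243.04 at 0.75 mM, but 0.12 at 3 mM and 0.05 in the control, and it was listed at 0 at 1.5 mM. It lay 10.12 log2 units above the highest replete value on the log2(value + 1) scale, and alone held 0.262% of the summed value of the 0.75 mM library. Family 743_c0 had 814.14 at 0.75 mM, with replete values of 0.21 (1.5 mM), 0.14 (3 mM) and 0.38 (control), a distance of 9.21. Both distances depend on the pseudocount, and ran from 7.93 to 12.46 for 47_c0 and from 7.25 to 10.73 for 743_c0 with pseudocounts of 5 and 0.1.

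The 2 lower families farthest outside the range showed the opposite picture. Family 1082_c0 had 0.34 at 0.75 mM, against 411.3, 489.84 and 181.21 at 1.5, 3 and 9 mM, and lay 7.09 log2 units below the lowest of these. Its replete values themselves spanned 1.43 units, with the control the lowest. Family 108_c0 had 0.56 at 0.75 mM, against 123.05, 168.83 and 118.91 at 1.5, 3 and 9 mM, a distance of 6.26 beside a replete span of 0.50. In all 4 families the 0.75 mM value lay apart from the 3 replete values, 1.5 mM included. Their choice by distance from the range of these 3 fixes that.

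The same 4 families kept this side with still less nitrate. Family 47_c0 had 381.91 at 0.38 mM and 602.96 at 0 mM, and 743_c0 had 882.62 and 259.33. Family 1082_c0 had 0.05 at 0.38 mM and 0.2 at 0 mM, and 108_c0 had 0.66 at 0.38 mM and was listed at 0 at 0 mM. The library of 0.38 mM carries a title code of another kind (beginning with RAA) than the other 5 nitrate libraries; the labels do not explain these codes.

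**Figure D2:**
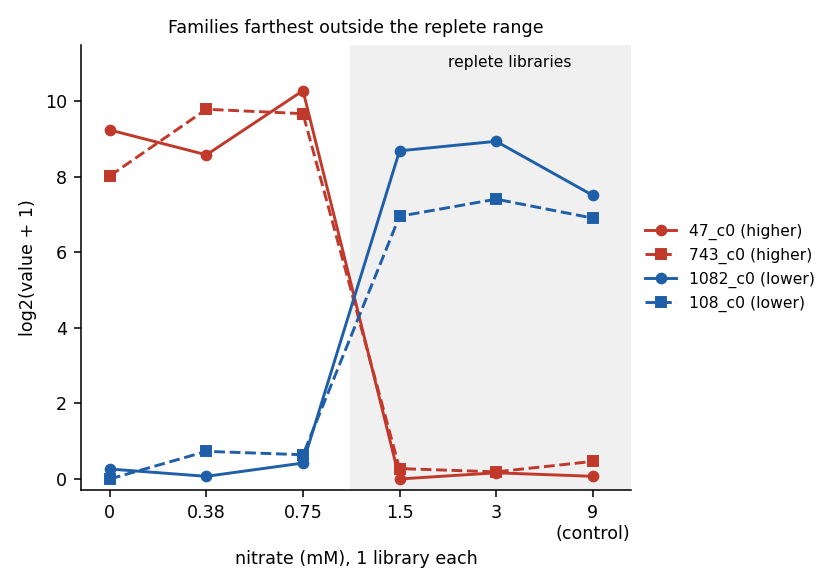
The y axis gives log2(value + 1) of the 2 higher (red) and 2 lower (blue) families farthest outside the replete range, and the x axis the nitrate concentration of the 6 libraries, 1 each, with the 3 replete ones shaded. The lines only join the libraries. The 4 families were chosen for the gap between 0.75 mM and the replete libraries. In 47_c0 the value was 1243.04 at 0.75 mM and a listed 0 at 1.5 mM.

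Near-complete switches of this kind were few, and the cuts used limit how many families could show one. Of all 8687 families tested, 42 were under 1 in all 3 replete libraries and 74 were under 1 at 0.75 mM. In 8 families all 3 replete values were under 1 and the value at 0.75 mM was at least 10; at 0.75 mM they ran from 10.03 to 1243.04, with a median of 12.03. Of these 8, 47_c0, 743_c0 and 1 more were at 541.55 or above at 0.75 mM, and the other 5 were at 10.03 to 13.74. In 5 families the value was under 1 at 0.75 mM and at least 10 in every replete library; their replete values ran from 12.61 to 1187.33 and their values at 0.75 mM from 0.06 to 0.91. A further limit applies to the first kind: 37 of the 419 higher families were under 1 in all 3 replete libraries and passed the minimum level only through their value at 0.75 mM, 47_c0 and 743_c0 among them.

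Ranked by the change in level instead of its ratio, the 2 foremost higher families were unlike each other. The first had 2090.66 at 0.75 mM, against 6.03, 4.65 and 6.06 at 1.5, 3 and 9 mM, a distance of 8.21 log2 units. It held 0.441% of the summed value of the 0.75 mM library. The second was already abundant with ample nitrate, with 1706.36 at 0.75 mM against 215.66, 159.11 and 216.04 in the same order, a distance of 2.98. With less nitrate the first had 1433.84 at 0.38 mM and 548.4 at 0 mM, while the second, with 317.1 and 237.74, was nearer to its replete values than to its 0.75 mM value.

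The 2 lower families with the greatest loss of level were among the most abundant transcripts of replete cultures, as a choice by loss of level requires. The first had 196.22 at 0.75 mM, against 3278.04, 5316.39 and 2984.15 at 1.5, 3 and 9 mM. It lay 3.92 log2 units below the range, and had 49.81 at 0.38 mM and 28.6 at 0 mM. The second had 128.99 at 0.75 mM, against 2558.57, 3415.54 and 2731.84, a distance of 4.30, and had 22.17 at 0.38 mM and 15.69 at 0 mM. The 0.75 mM value of each was between its replete values and its values with less nitrate, so most of the difference in level, but not all, was already present at 0.75 mM.

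The families just inside and just outside the minimum distance differed little. The higher family nearest inside had 148.13 at 0.75 mM and 46.89 to 73.45 in the replete libraries (distance 1.002), and the one nearest outside 56.98 against 24.1 to 28 (distance 0.9995). On the lower side the nearest inside had 20.16 against 41.37 to 61.37 (distance 1.002), and the nearest outside 44.47 against 89.86 to 106.4 (distance 0.9987).

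In replete cultures the lower families were the more abundant set, but a high replete level is partly built into their choice, as a low one is into that of the higher families. The median replete level, as the mean value of the 3 replete libraries, was 74.6 for the 227 lower families (quartiles 28.1 and 258) and 6.06 for the 419 higher families (quartiles 2.04 and 18.8), against 19.4 over all families tested. At 0.75 mM the order was reversed, with a median value of 26.4 for the higher and 20.2 for the lower families. Of the 100 most abundant families of the replete cultures, 24 were lower at 0.75 mM and 0 were higher, against 2.61% and 4.82% of all families tested. Ranked by the value at 0.75 mM instead, the 100 most abundant held 10 higher families and 1 lower one, so these counts follow the library used for the ranking. Ranked by the mean over the 4 libraries, 3 of which are replete, the 100 most abundant held 19 lower and 0 higher families. With the families divided into 4 equal groups by their mean level over the 4 libraries, 6.40% were lower and 4.05% higher in the most abundant group, and 0.966% were lower and 8.15% higher in the least abundant one. The replete values were also more variable in the least abundant group, with a median span of 0.47 log2 units against 0.30 in the most abundant one. The mean level is made of the values that define the change, so the grouping is not independent of it.

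**Figure D3:**
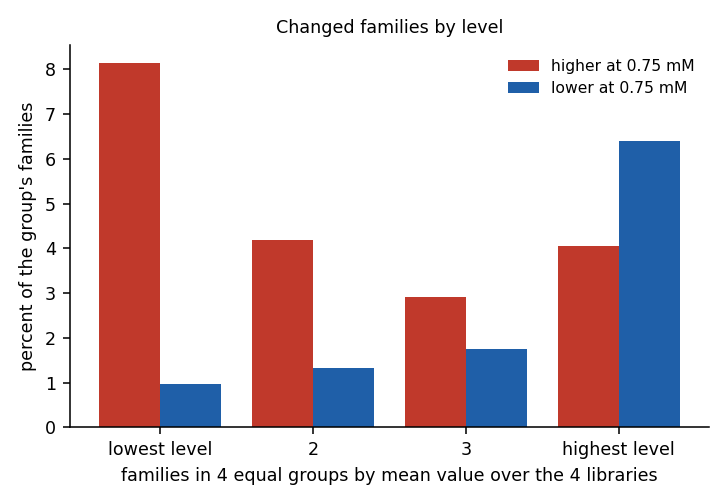
Bars give the percent of families higher (red) or lower (blue) at 0.75 mM by at least 1 log2 unit in 4 groups of 2171 to 2173 families, ordered on the x axis by mean value over the 4 libraries. The share of higher families is largest in the least abundant group (8.15%) and the share of lower families in the most abundant group (6.40%).

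The lower families made up a larger part of the transcript pool of replete cultures than the higher ones. They held 13.6%, 15.5% and 12.02% of the summed value at 1.5, 3 and 9 mM nitrate, and 2.58% at 0.75 mM. The higher families held 1.66%, 1.42% and 1.76% in the replete libraries and 7.93% at 0.75 mM. The families were chosen on these same values, so the shares measure how much of the pool the 2 sets took up and carry no test. The 10 most abundant lower families held 34.2% of that set's replete level and 20 held 52.2%. The 10 most abundant higher families held 34.3% of that set's level at 0.75 mM. These shares were not compared with those over all families.

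**Figure D4:**
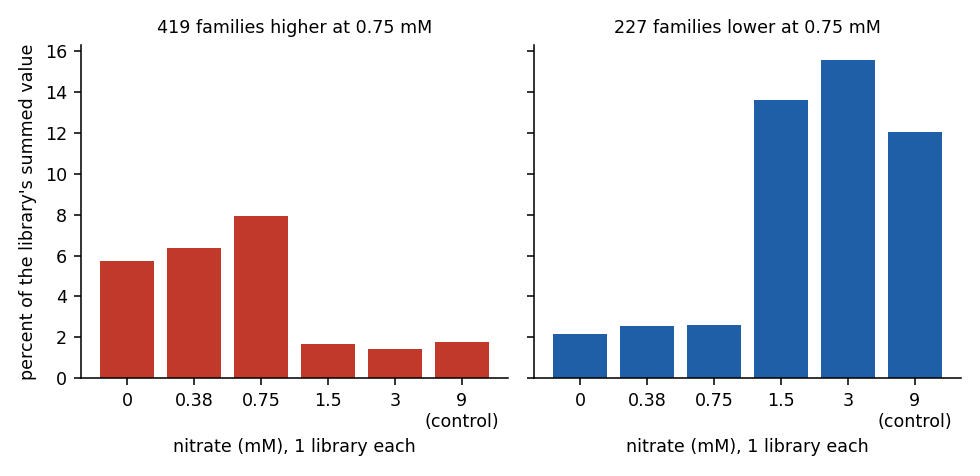
Bars give the percent of each nitrate library's summed value held by the 419 higher families (left) and the 227 lower families (right), 1 library per bar. The lower families take 12.02 to 15.5% in the 3 replete libraries and 2.18 to 2.58% at 0.75 mM and below; the higher families take 1.42 to 1.76% and 5.72 to 7.93%.

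Within the replete range, the changed families differed, in the median, by less than 0.1 log2 units between 1.5 mM and the mean of 3 mM and the control. The range used to choose them includes 1.5 mM, so a family whose 1.5 mM value leaned towards 0.75 mM was less readily chosen. The median difference of 1.5 mM from the mean of 3 mM and the control was -0.02 log2 units in the higher families (quartiles -0.21 and 0.18) and -0.01 in the lower ones (quartiles -0.15 and 0.17). Over all families tested it was -0.05. When families were chosen against 3 mM and the control alone, without 1.5 mM, 508 were higher and 280 lower. The medians were then 0.03 and -0.07, each further towards the side of 0.75 mM than before. That choice sought values of 3 mM and the control far from 0.75 mM, so it favours such a shift by itself. At 0.75 mM the median difference from the mean of the replete values was 1.70 in the higher and -1.62 in the lower families. The 1.5 mM library held the highest replete value in 133 of the 419 higher families (31.7%, against 24.0% of all tested). The control held it in 206 of them (49.2%, against 32.9%) and 3 mM in 80 (19.1%, against 43.1%). The 1.5 mM library held the lowest replete value in 67 of the 227 lower families (29.5%, against 43.8% of all tested). In 149 of the 227 lower families (65.6%) the lowest replete value was that of the control, and in 145 (63.9%) the highest was that of 3 mM, against 44.6% and 43.1% of all tested.

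With less nitrate, the median of the lower families stayed below the replete level, and that of the higher families lay closer to it than at 0.75 mM. All differences here are taken from the same replete libraries, so the values are set side by side without a test. The lower families had a median difference from the mean of the replete values of -1.62 log2 units at 0.75 mM nitrate; it was -1.83 with 0.38 mM and -1.56 without nitrate. The higher families had medians of 1.70, 0.82 and 0.65, with the lower quartile at 0.08 at 0.38 mM and at -0.21 at 0 mM. Over all families tested the medians were 0.09, -0.12 and 0.14. Summed values were 362924 at 0.38 mM and 593278 at 0 mM, against 473975 at 0.75 mM. Values were not rescaled between libraries, so the medians include any difference in scale. As the families were chosen for extreme values at 0.75 mM, that choice alone favours less extreme values in any other library, and how far it did so in each set was not tested.

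Taken family by family, 152 of the 227 lower families (67.0%) were within 1 log2 unit of their 0.75 mM value at both 0.38 and 0 mM, 13 were lower still by at least 1 unit in both, and 11 had come back up by at least 1 unit in both. Of the 419 higher families, 113 (27.0%) stayed within 1 unit in both, 7 were higher still in both, and 159 (37.9%) were at least 1 unit lower in both. Over all 8687 families tested, 69.5% were within 1 unit of their 0.75 mM value in both libraries, 1.05% were at least 1 unit higher in both and 7.25% at least 1 unit lower in both. The share of lower families that stayed within 1 unit was thus near that of all families, and the share of higher families that did so was below it. The remaining 51 lower and 140 higher families met none of these descriptions. The 1-unit cut was applied to values that were not rescaled between libraries. The 159 families had a median value of 20.8 at 0.75 mM, against 3.64 at 0.38 mM, 2.06 at 0 mM and 2.44 to 3.86 in the replete libraries. The 113 families had medians of 32.7, 32.3 and 34.0 at 0.75, 0.38 and 0 mM, against 8.61 to 9.78 in the replete libraries. Both groups were defined on the values of these libraries, so the course of their medians follows largely from the definitions.

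**Figure D5:**
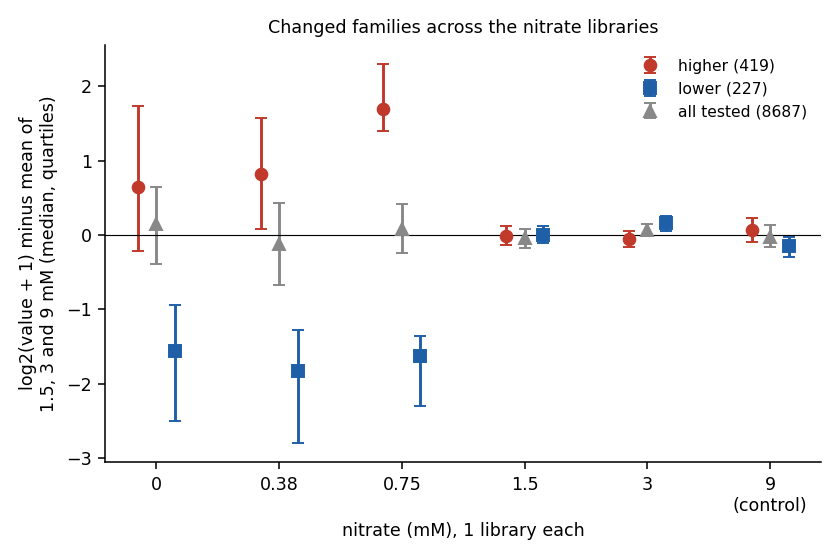
Points give the median, and bars the quartiles, over families of the difference in log2(value + 1) from the mean of the 1.5, 3 and 9 mM libraries, for the higher (red), lower (blue) and all tested (grey) families in each nitrate library. The lower families have medians of -1.83 to -1.56 at all 3 low concentrations, while the medians of the higher families are 1.70 at 0.75 mM, 0.82 at 0.38 mM and 0.65 at 0 mM.

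Some scaffold numbers in the table cover more than 1 family, and the table does not say how such families are related. Of the 646 changed families, 39 (6.04%) belonged to a scaffold number with at least 2 families tested, against 5.58% of all families tested. These came from 37 scaffold numbers, and in 2 of them both families changed. In one pair both were lower, at 64.66 against 519.71 to 875.31 and at 202.12 against 2050.63 to 2726.28. In the other pair both were higher, at 120.11 against 31.87 to 41.19 and at 103.99 against 26.32 to 47.11. If such families share sequence, reads could be divided between them, so their separate values are uncertain. No scaffold number had 1 family higher and another lower, which only the 2 with both families changed could have shown.

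The difference was also tested against the spread of the replete libraries. The test treated the 3 replete concentrations as repeats and assumed that the single 0.75 mM library varies as they do, with 2 residual degrees of freedom before the spread was shared across families. With limma and Benjamini-Hochberg adjustment over 8687 families, 676 families (7.78%) were higher and 471 (5.42%) lower at 0.75 mM at an adjusted p under 0.05, and 2428 passed at an unadjusted p under 0.05. Of the changed families, 414 of 419 higher and 225 of 227 lower ones were among them; the test uses the same values as the choice of families and adds no independent support. The number of calls depended on single libraries: it was 272 without 3 mM, 1497 without 1.5 mM and 1998 without the control. Median-ratio scaling turned the balance of the limma calls, with 543 higher and 581 lower, and gave 363 higher and 284 lower families outside the replete range by at least 1 unit.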

How the data were processed

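Libraries were made from poly(A)-selected RNA with an Illumina mRNA kit, per the labels' protocols. The deposited values were treated as signal, that is, as expression levels. How far they were scaled for feature length or library depth cannot be told from the values alone. Per the submitters' processing notes, the tools included edgeR 3.0.8, RSEM 1.2.0 and Bowtie 0.12.8, whose parts in the work are not described. Neither the unit (FPKM or TPM) nor the reference or the way families were built is given in the sources used here. Of 10122 families, 8687 with a mean of at least 1 over the 4 libraries were compared on log2(value + 1), as described above. The test was limma 3.58.1 in R 4.3.3, with the prior variance following the mean level, checked on simulated data.

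The members and rules were chosen with earlier results of these data known. Families given with values were the 2 per direction farthest outside the replete range with a mean of at least 5, the 2 per direction with the greatest change in level, and those nearest the minimum distance. The near-complete switches and the scaffold pairs were singled out after their values were seen. Alternatives were other filters, pseudocounts, scalings and distances, and omission of each replete library. No gene list could be used. Depth is unknown, so no counting interval was computed.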

Additional observations from a re-analysis of the deposited data

How the results depend on the processing

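The 8 families described for their large changes had distances of 2.83 to 12.46 over 7 alternatives each, which their choice as extremes largely fixes; those nearest the minimum distance were not recomputed. The counts of changed families moved by more than 1.5 times with a pseudocount of 5 (256 higher), with a distance of 2 log2 units (103 higher and 58 lower) and with 0.5 (1137 and 730). Without 1 replete library they were 459 to 562 higher and 233 to 331 lower. A narrower range can only add families, but the minimum mean was also taken over the remaining libraries. That left 8740 families compared without 1.5 mM, 8716 without 3 mM and 8676 without the control. All 419 higher and 227 lower families were kept each time. The limma count of 1147 became 616 with no filter on low values, and 272 to 1998 without 1 replete library, and stayed between 942 and 1284 in the other alternatives run. The cause was not tested. The share of the 0.75 mM library held by the higher families was 8.30 to 10.03% for sets chosen without 1 replete library and 4.02% for those at least 2 units outside. The median difference of 1.5 mM in the higher families was 0.046 with median-ratio scaling, and over both sets and all alternatives run it lay between -0.07 and 0.07. No paired analysis was possible because each condition has 1 library.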

Other observations

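The families changed at 0.75 mM nitrate also had values in the NaCl cultures, whose labels give no nitrate concentration. The 419 higher families had a median difference from the replete mean of 0.54 log2 units at 75 mM NaCl, 0.56 at 150 mM, 0.24 at 300 mM and 0.13 at 600 mM, against 0.17, 0.31, 0.15 and -0.03 over all families tested. The 227 lower families had medians of -0.08, -0.27, -0.02 and -1.06. They held 11.3%, 10.6%, 13.2% and 9.76% of the summed value of these libraries. The control library is part of the replete mean, and the library of 150 mM NaCl carries an RAA title code.

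Single families of the 0.75 mM set parted from one another under NaCl. Family 47_c0 ranged from 8.82 (150 mM NaCl) to 80.21 (300 mM), all above its replete values of 0 to 0.12, while 743_c0 had 0.18 to 0.33 in these 4 libraries. Family 108_c0, at 0.56 with 0.75 mM nitrate, had its lowest NaCl value at 75 mM (268.96) and its highest at 150 mM (2021.59). Family 1082_c0 had 9.8 at 75 mM NaCl and 0.14 to 1.37 in the other 3.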
